A study of Mus musculus with 4 samples.

Results

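The 9 genes described here are transcription factors that mark regions of the embryonic telencephalon: Emx1, Emx2, Dmrta2, Dmrt3, Otx1, Otx2, Sp8, Gsx2 and Eomes. They were chosen by name for their known roles in forebrain patterning, and all 9 were found among the 33708 rows of a table of autosomal genes measured by RNA sequencing of the frontonasal prominence (FNP), from which the nose and upper snout develop. The FNPs came from 4 mouse embryos of the FVB/NJ strain at E10.5, all with 29 somites. A pair of embryos was wild type (Smchd1+/+, WT), labelled as 1 female and 1 male. The other pair was homozygous for MommeD43 (Smchd1MommeD43/MommeD43, MD43), a missense allele of Smchd1 that arose in a chemical mutagenesis screen, and both were labelled as male. SMCHD1, an SMC-like protein of chromatin, helps keep imprinted genes and the inactive X chromosome silent. WT replicate 2 and MD43 replicate 2 shared a mother, and a column heading in the study's own supplement calls WT replicate 2 female, so sex and genotype may vary together and cannot be told apart. The FNP was cut away along its border with the maxillary prominence, and the sources used here do not say how much forebrain came with it. The comparison addresses whether expression in this tissue differs when SMCHD1 carries the MommeD43 change.

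The telencephalon is the front end of the neural tube. Its roof, the pallium, forms the cerebral cortex and its floor, the subpallium, forms the basal ganglia, and each is set up by transcription factors expressed in overlapping gradients. Emx and Dmrt factors pattern the pallium, Gsx2 specifies the lateral subpallium, and Sp8 acts at the front of the telencephalon downstream of FGF signals. Otx factors are needed for the forebrain and midbrain as a whole, and Eomes marks intermediate neuronal progenitors of the pallium. Several of these genes, among them Otx2, Sp8 and Emx2, are also expressed in the olfactory placode, which lies within the FNP.

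The 2 libraries of a genotype had been merged by the authors into 1 value, in log2 RPKM (reads per kb of transcript, scaled to library depth, as log2). No spread between embryos can therefore be given and no test was made. Reads stated below are the geometric mean of the 2 libraries of a genotype, recovered from these values, and the error beside a log2 difference is the smallest standard error that counting these reads allows. It leaves out the variation between embryos. These values imply libraries of 22328791 reads in MD43 and 16055882 in WT, again as geometric means. Smchd1 itself (chromosome 17, 71344489 to 71475343) was at 3.30 log2 RPKM in MD43 and 3.31 in WT, a log2 difference of -0.01 ± 0.02. The mutation is a change of residue, so the level of the transcript does not check the labels.

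Genes that define the anterior neural plate were examined to see whether their transcripts came with the FNP, which does not test the tissue label. Nr2e1 (Tailless), a factor of forebrain progenitors, was at 5.04 log2 RPKM in both genotypes, and Six3, which specifies the rostral forebrain, had 801 MD43 reads and 698 WT reads. Transcripts of these genes were thus present beside those of facial mesenchyme and ectoderm, though Six3 is also expressed in the olfactory placode. In such bulk tissue, fewer cells of a type and less RNA per cell cannot be told apart.

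All 9 genes were expressed in both genotypes, with 81.8 to 2288 reads in MD43 and 74.0 to 2029.7 in WT. Per length, Otx2 had the highest level in WT at 29.9 RPKM, followed by Emx2 at 27.8 RPKM and Dmrta2 at 16.1 RPKM. Otx1 (13.1 RPKM), Dmrt3 (10.8 RPKM) and Sp8 (10.8 RPKM) formed the middle of the order, and Dmrt3 and Sp8 lay within the 95% interval of their counting error of each other. Emx1 (6.54 RPKM), Eomes (4.89 RPKM) and Gsx2 (2.77 RPKM) were lowest.

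In MD43 the order changed at the top. Emx2 was highest at 34.1 RPKM and Otx2 second at 19.5 RPKM, level with Dmrta2 at 19.1 RPKM within the counting interval. Otx1 (14.2 RPKM), Sp8 (13.6 RPKM) and Dmrt3 (13.1 RPKM) again lay close together, and neighbours among these were within the counting interval. Emx1 (9.47 RPKM), Eomes (3.58 RPKM) and Gsx2 (2.20 RPKM) kept the last places. Whether the embryos of a genotype differ by more than these gaps is unknown.

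**Figure D1:**
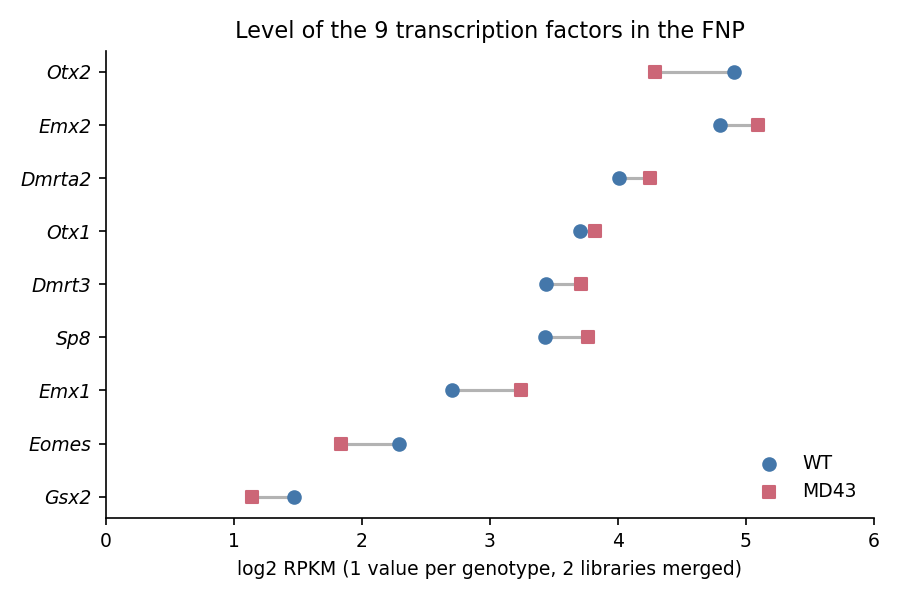
Level of each of the 9 genes in log2 RPKM on the horizontal axis, with a circle for the WT value and a square for the MD43 value. Otx2, Eomes and Gsx2 lie to the left in MD43 and the other 6 to the right, from 1.14 log2 RPKM for Gsx2 in MD43 to 5.09 for Emx2 in MD43.

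The genotypes differed modestly and in both directions. Of the 9 genes, 6 were higher in MD43 and 3 were lower, while of the 15377 genes that reached 10 reads in either genotype, 51.2% were higher and 48.8% lower. None was at least 2-fold apart, a distance reached by 4.11% of all these genes, and 1, Otx2, was at least 1.5-fold apart, beside 10.7% of all genes (4.24% in the higher and 6.43% in the lower direction). Set against the median of a list of general neural progenitor genes, a scaling chosen after the data were seen, Emx1 (0.67) was past 1.5-fold and Otx2 (-0.48) was not. The median log2 difference of the 9 was 0.25, with a range from -0.62 for Otx2 to 0.54 for Emx1, and the median of all genes was 0.01. Of the 9 differences, 8 lay outside the interquartile range of all genes (-0.16 to 0.15), as 50% of genes do by definition. Summed over the 9 genes, the level was 129 RPKM in MD43 and 123 RPKM in WT, a log2 difference of 0.07, so the higher and lower genes nearly offset each other.

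**Figure D2:**
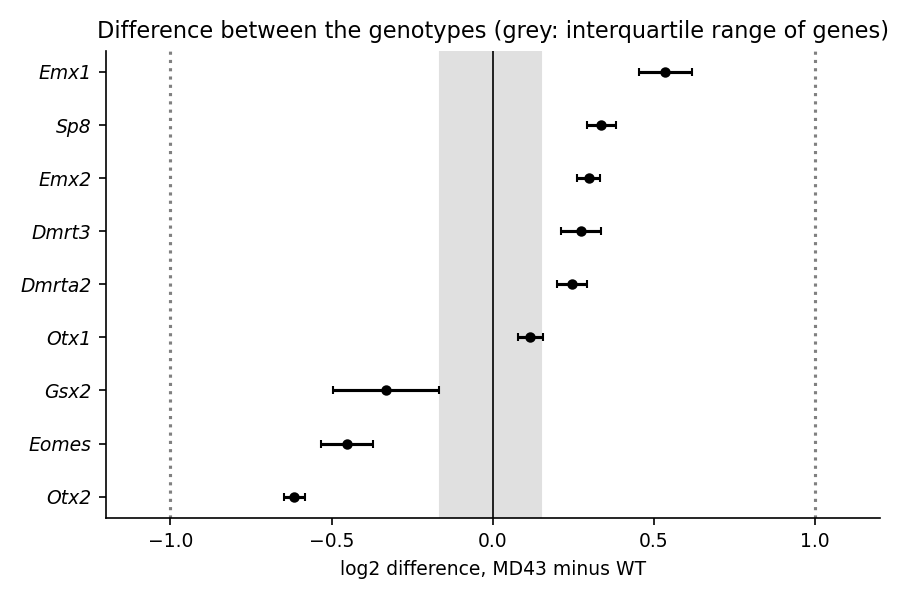
Log2 difference, MD43 minus WT, for each of the 9 genes, with bars for the smallest counting standard error on each side, which leaves out variation between embryos. Grey marks the interquartile range of 15377 genes and dotted lines mark 2-fold. Otx1 lies within the grey band, and no gene reaches a dotted line.

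The 4 pallial patterning genes were all higher in MD43. Emx1 (ENSMUSG00000033726, GRCm38 chromosome 6, 85187438 to 85204462, plus strand), a homeobox gene of the dorsal telencephalon, had 462 MD43 reads and 229 WT reads. Its level was 9.47 RPKM in MD43 and 6.54 in WT, a log2 difference of 0.54 ± 0.08, or 1.45-fold higher. This was the largest positive difference among the 9. Of all 15377 tested genes, 4.82% lay higher and 12.2% were at least as far from 0. Of the 10757 genes that reached 100 reads in each genotype, which spread less, 0.753% lay higher.

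Emx2 (ENSMUSG00000043969, chromosome 19, 59458372 to 59465357, plus strand), which sets the position of cortical areas and is needed for the hippocampus, had 2288 MD43 reads and 1339 WT reads. Its log2 difference was 0.30 ± 0.04, or 1.23-fold higher. Emx2 was the more abundant of the Emx paralogues in both genotypes, with Emx1 at 19.0% of their summed RPKM in WT and 21.7% in MD43. The log2 difference of Emx1 exceeded that of Emx2 by 0.24 ± 0.09.

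Dmrta2 (also known as Dmrt5, ENSMUSG00000047143, chromosome 4, 109978053 to 109983687, plus strand) is a DM-domain factor of caudal and medial pallial progenitors. It had 1244 MD43 reads and 754 WT reads, a log2 difference of 0.25 ± 0.05. Dmrt3 (ENSMUSG00000042372, chromosome 19, 25610301 to 25623921, plus strand), its close relative with a partly shared role in the pallium, had 714 MD43 reads and 425 WT reads, a log2 difference of 0.27 ± 0.06. These paralogues kept the same ratio. Dmrta2 was 1.46 times Dmrt3 in MD43 and 1.49 times in WT, and their log2 differences were -0.03 ± 0.08 apart.

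The Otx paralogues differed from each other. Otx1 (ENSMUSG00000005917, chromosome 11, 21994764 to 22002897, minus strand), which acts in cortical and sensory organ growth, had 1713 MD43 reads and 1136 WT reads. Its log2 difference of 0.12 ± 0.04 was the smallest of the 9 in size (relative to the neural progenitor genes it was 0.25, and that of Gsx2, -0.20, was the smallest), and 60.0% of all tested genes were at least as far from 0. Otx2 (ENSMUSG00000021848, chromosome 14, 48657677 to 48673819, minus strand), the head gene required for forebrain formation, had 1842 MD43 reads and 2029.7 WT reads from the shallower libraries.

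The level of Otx2 was 19.5 RPKM in MD43 and 29.9 in WT, a log2 difference of -0.62 ± 0.03, or 1.53-fold lower. Of all tested genes, 5.87% lay lower and 9.79% were at least as far from 0. Among those 10757 well-covered genes, 1.46% lay lower. The log2 differences of Otx1 and Otx2 were 0.73 ± 0.05 apart. Otx1 made up 30.4% of the summed Otx RPKM in WT and 42.0% in MD43. This was the largest shift within a pair of paralogues, and whether it exceeds the variation between embryos was not tested.

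Sp8 (ENSMUSG00000048562, chromosome 12, 118846329 to 118852576, plus strand) is a zinc finger factor of the front of the telencephalon and of the nasal epithelium. It had 1388 MD43 reads and 791 WT reads. Its level was 13.6 RPKM in MD43 and 10.8 in WT, a log2 difference of 0.34 ± 0.05, and it followed Emx1 as the second largest positive difference.

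Gsx2, of the subpallium, and Eomes, of pallial progenitors that are about to form neurons, were both lower in MD43. Gsx2 (ENSMUSG00000035946, chromosome 5, 75075601 to 75077893, plus strand) had 81.8 MD43 reads and 74.0 WT reads, which with the deeper MD43 libraries gave a log2 difference of -0.33 ± 0.16. As the gene with the fewest reads it had the widest counting error, and its difference was 2.02 times that error. Eomes (also known as Tbr2, ENSMUSG00000032446, chromosome 9, 118478212 to 118486132, plus strand) had 332 MD43 reads and 326 WT reads. Its level was 3.58 RPKM in MD43 and 4.89 in WT, a log2 difference of -0.45 ± 0.08, or 1.37-fold lower.

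Set against Emx2, Eomes and Gsx2 lay further away in MD43, which follows from the signs of their differences above. Emx2 was 5.68 times Eomes in WT and 9.54 times in MD43, and the log2 differences of this pair were 0.75 ± 0.09 apart. The log2 ratio of Emx2 to Gsx2 was 3.33 in WT and 3.96 in MD43, with log2 differences 0.63 ± 0.17 apart. Such ratios within a sample do not depend on the scaling of the libraries. They restate the differences of the single genes, and their spread between embryos is unknown.

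**Figure D3:**
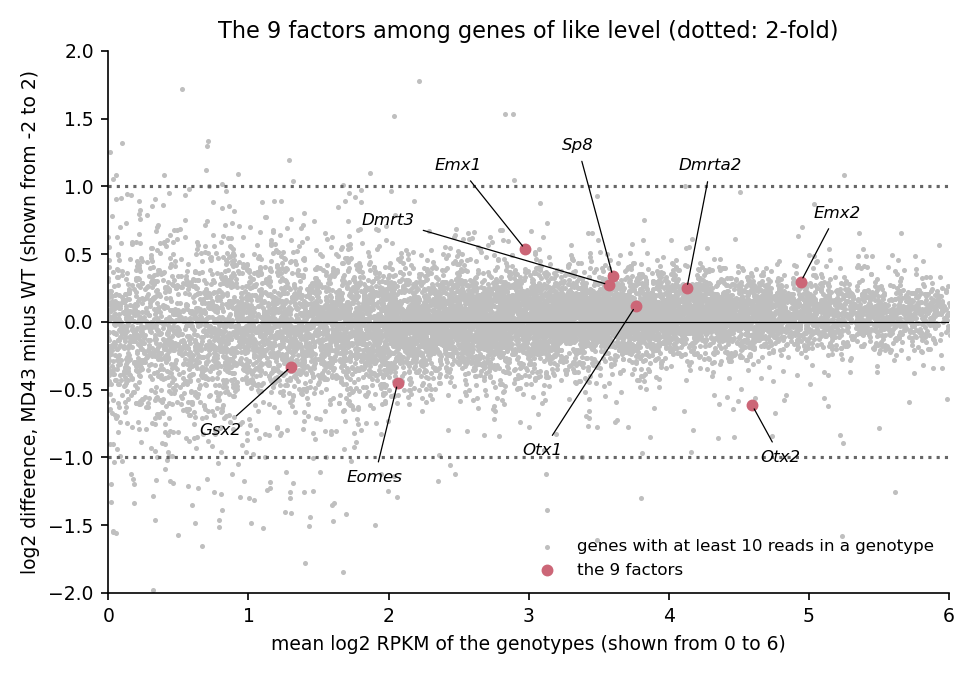
Log2 difference, MD43 minus WT, against the mean log2 RPKM of the genotypes for genes that reached 10 reads in either genotype (grey dots, shown from 0 to 6 and from -2 to 2) and for the 9 genes (labelled red dots). Otx2 and Emx1 lie toward the lower and upper edge of genes of like level, and Otx1 lies in the middle.

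The reads of the single libraries could be narrowed down for the less abundant genes, because the value of a genotype fixes the product of the 2 counts. For Gsx2 this product was 6695 in MD43 and 5478 in WT, and each has a single pair of whole factors within 4-fold of each other. These pairs are 65 and 103 reads in MD43 and 66 and 83 reads in WT, so the MD43 libraries would be 1.58-fold apart before any scaling for depth and the WT libraries 1.26-fold. For Emx1 in WT the product of 52520 leaves 202 and 260 reads or 130 and 404 reads.

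For Emx1 in MD43 the product of 213280 leaves 4 pairs, of which 430 and 496 reads are the closest and 248 and 860 the farthest apart. Eomes had products of 110166 in MD43 and 106596 in WT. The closest pairs were 301 and 366 reads in MD43 and 324 and 329 in WT, and pairs up to 3.29-fold and 3.02-fold apart also remain. Which embryo has which count, and the depth of each library, cannot be recovered, so these pairs give no spread between embryos. For the genes with more reads the products are too large for the precision of the values or leave several pairs.

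Genes that overlap the 9 or lie within 10 kb were examined because reads can be shared and because neighbours may differ with them. There were 9 such genes, beside 7 of the 9 factors, and 3 of the factors were overlapped by another gene. The libraries were stranded, but the sources used here do not say whether counting took strand into account, so an overlapping pair may share reads. Sp8 and Gsx2 had no neighbour at this distance, and Dmrt3 had Dmrt1, a sex determination gene with 15.8 reads in MD43 and 15.9 in WT.

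Otx2 had the neighbours with the largest differences. Gm49154 (chromosome 14, 48672094 to 48673899, minus strand), a transcript annotated as to be experimentally checked, overlaps 1726 bp at the 5′ end of Otx2 on the same strand. It had 11.0 WT reads and 0.949 MD43 reads, 5.08-fold lower when MD43 is set to 3 reads. Otx2os1 (chromosome 14, 48668708 to 48870683, plus strand), a long non-coding RNA on the other strand, shares 5112 bp with the Otx2 locus. It had 8.06 MD43 reads and 13.4 WT reads, a log2 difference of -1.21 ± 0.45. Both were lower, as was Otx2, on few reads. Gm49151, 7902 bp away, had no reads in any library.

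The neighbours of the other genes differed less. Emx2os, an antisense RNA that overlaps Emx2 by 264 bp, had 176 MD43 reads and 109 WT reads and a log2 difference of 0.21 ± 0.12, beside 0.30 for Emx2. Gm33460, an antisense RNA that overlaps Eomes by 574 bp, had 22.4 MD43 reads and 23.0 WT reads and a log2 difference of -0.52 ± 0.30, beside -0.45 for Eomes. Dmrta2os, which starts 239 bp upstream of Dmrta2 on the other strand, had 82.2 MD43 reads and 72.1 WT reads. Its log2 difference of -0.29 ± 0.16 was opposite in sign to that of Dmrta2. Sfxn5, near Emx1, was at 0.17 ± 0.10, and Ehbp1, near Otx1, at -0.11 ± 0.05.

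The promoters of the 9 genes were compared to see what sequence they share. A window of the 250 bases before the start site was held for 8 of them in RefSeq (GRCm38.p6), with the most upstream start taken where there were several, and Otx1 had no window. For Emx1, Emx2 and Otx2 this window lay within the annotated gene, and for Dmrt3 it crossed the gene's start, so these windows precede a later start site. The windows were richer in G and C than most, with a median of 62.6% against 52% over 27025 genes, and held a median of 14.5 CpG dinucleotides against 6. They were not uniform. Emx1, the gene with the largest positive difference, had 75.6% GC and 30 CpGs, Sp8, which was also higher, had 40.8% and 1 CpG, and Otx2, which was lower, had 42% and 6 CpGs.

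Both strands were searched for 3 motifs. GGGCGG, the GC box read by Sp family factors, was found in 3 of the 8 windows (Emx1, Emx2 and Gsx2) and in 33% of all. TATAAA, the element bound by TBP, was found in 3 (Otx2, Sp8 and Gsx2) and in 13% of all, and TAATTA, the core letters of many homeodomain sites, in 1 (Otx2) and in 4.91% of all. Each match is a match of letters and not a bound site. The windows of 4 genes lie wholly before the annotated gene and are shown 5′ to 3′, a pair with higher and a pair with lower values in MD43, to let their differing base composition be seen. The first bases of the Dmrta2 window lie within Dmrta2os. Capitals mark matches to these motifs, and the windows are, on the plus strand, chr4:109977775-109978024 for Dmrta2, chr12:118846079-118846328 for Sp8, chr5:75075351-75075600 for Gsx2 and chr9:118477939-118478188 for Eomes.
Dmrta2: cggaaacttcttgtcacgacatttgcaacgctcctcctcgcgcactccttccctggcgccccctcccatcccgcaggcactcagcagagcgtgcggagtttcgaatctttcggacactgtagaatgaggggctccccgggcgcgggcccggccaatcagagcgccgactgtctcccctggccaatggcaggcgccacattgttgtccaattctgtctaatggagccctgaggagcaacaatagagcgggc
Sp8: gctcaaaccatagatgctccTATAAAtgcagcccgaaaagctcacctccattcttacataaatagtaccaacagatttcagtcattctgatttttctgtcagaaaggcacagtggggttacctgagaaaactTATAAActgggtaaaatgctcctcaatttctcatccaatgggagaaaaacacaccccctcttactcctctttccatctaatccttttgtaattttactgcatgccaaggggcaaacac
Gsx2: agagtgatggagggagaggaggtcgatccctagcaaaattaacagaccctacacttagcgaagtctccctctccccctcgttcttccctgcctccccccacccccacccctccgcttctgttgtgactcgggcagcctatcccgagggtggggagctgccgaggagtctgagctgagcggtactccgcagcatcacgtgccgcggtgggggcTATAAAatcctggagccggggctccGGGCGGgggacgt
Eomes: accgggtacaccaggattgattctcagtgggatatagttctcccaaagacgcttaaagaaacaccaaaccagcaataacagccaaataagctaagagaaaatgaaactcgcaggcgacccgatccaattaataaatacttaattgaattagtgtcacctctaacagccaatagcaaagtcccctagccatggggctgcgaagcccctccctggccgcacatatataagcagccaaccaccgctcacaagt

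Relatives of the 9 genes showed how the families compared. Of 17 listed relatives, 14 reached 10 reads in either genotype, and 6 of these were higher and 8 lower in MD43, with a median log2 difference of -0.04. Dmrta1 (Dmrt4), which like Dmrta2 and Dmrt3 is a DM-domain gene, was higher at 0.49 ± 0.06 with 820 reads in MD43 and 419 in WT. Sp6, an ectodermal Sp factor, was higher at 0.53 ± 0.08, and Sp5, a target of Wnt signalling, was lower at -1.33 ± 0.23. Sp3, the most abundant relative and a general factor, was at -0.05 ± 0.03.

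No relative was at least 2-fold higher, beside 1.64% of all genes, and 4 were at least 2-fold lower, beside 2.47% of all genes. Besides Sp5 these were Tbr1, Gsx1 and Dmrtb1. Tbr1, the T-box factor that follows Eomes in new pallial neurons, had 50.3 MD43 reads and 109 WT reads, a log2 difference of -1.60 ± 0.17. Gsx1, the partner of Gsx2 in the subpallium, had 18.4 MD43 reads and 27.5 WT reads, a log2 difference of -1.06 ± 0.31. Dmrtb1 had 2.24 MD43 reads and 15.6 WT reads, 7.21-fold lower when MD43 is set to 3 reads. Crx, the retinal Otx relative, had under 3 reads in each genotype.

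Other genes of the telencephalon gave the setting of these values. As a background for each list below, 51.2% of the 15377 genes were higher in MD43 and 48.8% lower. At least 2-fold higher were 1.64% of them, and at least 2-fold lower 2.47%. In the list of telencephalon-wide genes, 4 of 7 measured genes were higher and 3 lower, with a median log2 difference of 0.00. Lhx2, a selector gene of the cortex, was higher at 0.49 ± 0.02, Six3 at -0.28 ± 0.05 and Fezf1 at -0.33 ± 0.05. The 1 gene at least 2-fold higher was Hesx1, an early forebrain and pituitary gene, on 12.4 MD43 reads and 2.32 WT reads (2.98-fold when WT is set to 3 reads).

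Among pallial neurogenesis genes, 7 of 9 with enough reads were lower in MD43, with a median log2 difference of -0.51 (-0.31 with a pseudocount of 1 RPKM). Of these, 4 were at least 2-fold lower, beside 2.47% of all genes, namely Tbr1 (above), Trp73, Neurog2 and Bhlhe22. The 2 higher genes were Neurod1 (0.38 ± 0.12) and Neurog1 (0.12 ± 0.10). Neurog2, which drives pallial progenitors into neurogenesis and lies upstream of Eomes, had 187 MD43 reads and 280 WT reads, a log2 difference of -1.06 ± 0.10. Trp73, of Cajal-Retzius cells, was at -1.07 ± 0.16 and Bhlhe22, of young neurons, at -3.46 ± 0.61 on 0.0424 RPKM in MD43 and 0.465 in WT. Pax6, the most abundant and a factor of pallial progenitors, eye and placode, was at -0.35 ± 0.03. The direction of Eomes was thus shared by most of this list, and that of Emx1, Emx2, Dmrta2 and Dmrt3 was not.

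The subpallial list, to which Gsx2 belongs by role, had 8 of 14 genes lower and a median log2 difference of -0.10. Its 3 genes at least 2-fold lower were Lhx8 (-1.98 ± 0.20) and Lhx6 (-1.55 ± 0.22), LIM factors of ventral neurons and of the jaw, and Gsx1 (above). Dlx1, which acts downstream of Gsx2, was at -0.80 ± 0.08, and Nkx2-1, of the medial subpallium and hypothalamus, at -0.45 ± 0.06.

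Signals that pattern the telencephalon were lower more often than higher. Of the FGF ligands and feedback genes of the anterior neural ridge, which lie upstream of Sp8, 10 of 12 were lower, with a median of -0.27. Fgf15 (-1.39 ± 0.07) was the 1 gene at least 2-fold lower, followed by Fgf17 (-0.64 ± 0.07) and Spry1 (-0.60 ± 0.04), and Dusp6, the most abundant, was at -0.18 ± 0.03. Of the cortical hem and dorsal midline signals, which act on Emx and Dmrt genes, 6 of 8 were lower, with a median of -0.34. Rspo3, an enhancer of Wnt signalling, was at -1.61 ± 0.06 and Wnt2b at -1.19 ± 0.32, and these 2 were at least 2-fold lower. Rspo2 was at -0.57 ± 0.05, Lmx1a at -0.40 ± 0.09 and Wnt7b at -0.16 ± 0.03. The 2 higher genes, Rspo1 (0.25 ± 0.05) and Wnt8b (0.04 ± 0.04), were also abundant, at 28.5 and 25.7 RPKM in MD43. The sign of Sp8, Emx1, Emx2, Dmrta2 and Dmrt3 was opposite to that of these list medians. Whether these signals bear on the level of those genes in this tissue was not tested.

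**Figure D4:**
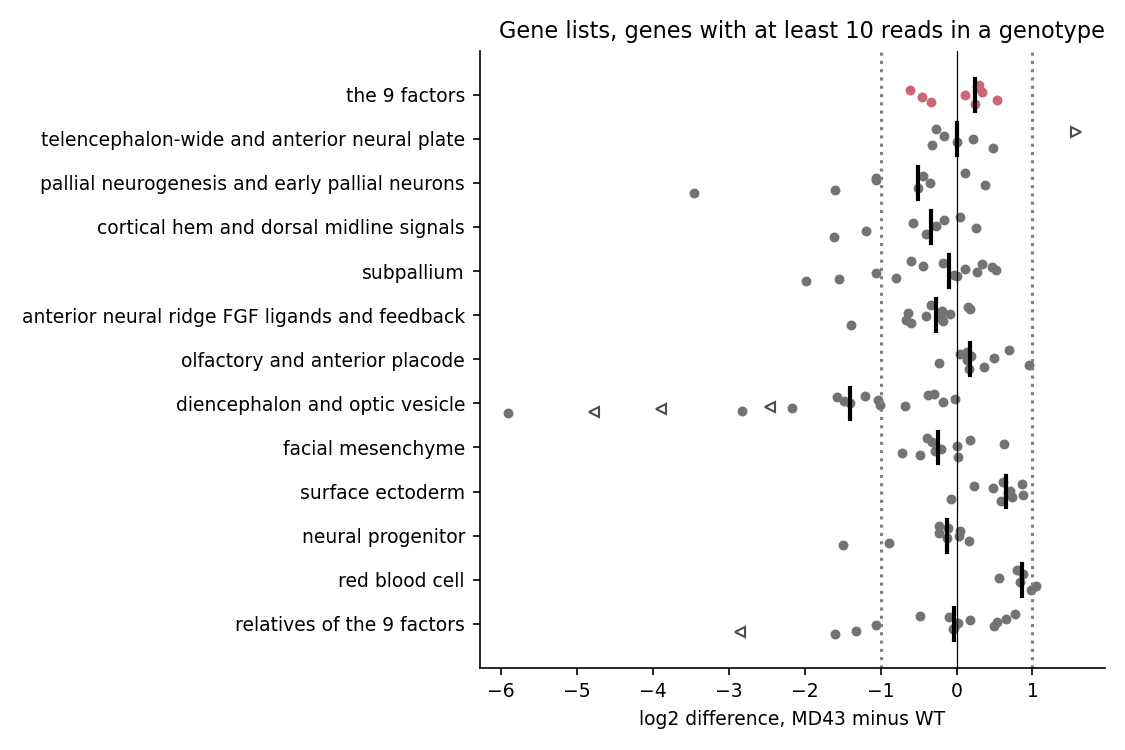
Log2 difference, MD43 minus WT, of the genes in each list that reached 10 reads in either genotype, with 1 dot for each gene, an open triangle for a gene with at most 3 reads in a genotype (set to 3 reads), a bar at the median and dotted lines at 2-fold. The 9 genes (red) stay within 2-fold. The diencephalon and optic vesicle list reaches -5.91 (Barhl2, on 4.24 MD43 reads) and the surface ectoderm list has a median of 0.65.

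Markers of the other tissues of the piece also differed between genotypes, and their part in the values above was not tested. Of the diencephalon and optic vesicle genes, 17 of 17 were lower, with a median of -1.40 (-0.39 with a pseudocount of 1 RPKM) and a summed level of 22.8 RPKM in MD43 and 40.0 in WT. Among them Barhl2 was at -5.91 ± 0.50 on 4.24 MD43 reads and 183 WT reads. Nkx2-2 was at -2.83 ± 0.32 on 12.0 MD43 reads and 61.2 WT reads. Foxb1 was 27.3-fold lower on 1.34 MD43 reads (set to 3) and 58.8 WT reads. Irx3, the most abundant, was at -0.18 ± 0.07. Of 20 listed genes, 3 had fewer than 10 reads in both genotypes, and 3 more, among them Foxb1 and Olig3, had at most 3 reads in MD43, without moving the median when set to 3. Otx2 is also expressed in the diencephalon, midbrain and eye, and its sign was that of this list.

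Surface ectoderm markers were higher, with 9 of 10 genes above WT, a median of 0.65 and a summed level of 204 RPKM in MD43 and 131 in WT. Cldn7 (0.87 ± 0.09), Cldn6 (0.87 ± 0.05) and Cdh1 (0.73 ± 0.05), which encode junction proteins, were farthest apart, and Krt18, the most abundant, was at 0.49 ± 0.04. Of the olfactory and anterior placode genes, 9 of 10 were higher, with a median of 0.18 and a summed level of 84.1 RPKM in MD43 and 60.3 in WT. Aldh1a3, which makes retinoic acid in the nasal ectoderm, was at 0.96 ± 0.03, Dlx3 at 0.49 ± 0.09 and Eya2 at 0.36 ± 0.05. The median of the 9 factors, 0.25, lay between those of these lists. The sign of Emx2 and Sp8, which the placode also expresses, was that of both. Otx2 (-0.62), which the placode expresses too, had the opposite sign.

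Facial mesenchyme markers had 4 of 10 genes higher, a median of -0.25 and a summed level of 142 RPKM in MD43 and 146 in WT. Twist2 was at -0.71 ± 0.16 and Col3a1 at -0.48 ± 0.03. General neural progenitor genes had 3 of 9 higher, a median of -0.13 and a summed level of 304 RPKM in MD43 and 345 in WT. Sox2, the most abundant, was at -0.13 ± 0.03, Sox1 at -0.23 ± 0.04 and Fabp7 at -0.89 ± 0.05, and the 1 gene at least 2-fold lower was Pou3f2 at -1.50 ± 0.07. Red blood cell genes had 6 of 6 higher, a median of 0.86 and a summed level of 5811 RPKM in MD43 and 3057 in WT. Hbb-bh1 was at 1.04 ± 0.01 and was the 1 gene of this list at least 2-fold higher, with Epb42 at 0.98 ± 0.19 and Klf1 at 0.88 ± 0.19.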

How the data were processed

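The values of 9 genes were taken from the deposited RNA sequencing table of 4 FNPs, 2 of each genotype. Poly(A)-selected, stranded libraries used 100 ng of total RNA each. The authors trimmed reads with Trim Galore (0.4.4, per the submitters' processing notes) and Cutadapt, mapped them with HISAT2 (2.0.5) to GRCm38.p6 and quantified them in SeqMonk as log2 RPKM. The deposited table has 1 log2 RPKM column for each genotype. Further deposited columns, with the authors' FDR (q-value), log2 fold change and mean level, come from their own comparison and were not used.

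All differences are the MD43 column minus the WT column. Rows were joined to GENCODE M21 (GRCm38) on symbol and coordinates, and 33101 of 33708 matched. Corrected for exon length, the commonest value marks genes without reads, which enter as 0.9 reads in each library. The squared ratio of a linear value to this floor, multiplied by 0.81 (the product of 0.9 reads in each library), gave the product of both libraries' reads. Of products up to 1000, 99.9% were whole numbers, whole multiples of 0.9 or 0.81, to within 0.002, in MD43 and in WT. The recovery was tested on simulated data. Factor pairs within 4-fold were listed where the product was within 0.1 of a whole number and the precision of the value allowed it.

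Genes that reached 10 reads in either genotype formed the background. For folds, values of 3 reads or fewer were raised to 3, a floor for counting error alone. The smallest counting error treats reads as independent molecules. The genes named are the 9 members, Smchd1, their neighbours within 10 kb and, from each of 12 lists, the most abundant gene and up to 3 with the largest difference among genes with at least 50 reads. Nr2e1, Hesx1, Olig3, Bhlhe22, Neurod1, Neurog1, Wnt2b, Rspo1, Wnt8b, Gsx1, Dmrtb1, Dmrta1 and Crx were named after their values were seen. Gsx1 and Tbr1 are each in 2 lists. The members and lists were chosen with earlier results of these data known. Alternatives were pseudocounts of 0.1 and 1 RPKM, centring, other filters and thresholds and, added after the data were seen, scaling to the neural progenitor list. Some list genes, and 1 further scaling that rests on a single gene, are not reported here. Python 3.11.15, pandas 2.3.3 and numpy 2.4.6 were used.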

Additional observations from a re-analysis of the deposited data

How the results depend on the processing

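No paired analysis was possible because each genotype has 1 merged column. Leaving out each replicate in turn was not run for that reason, so whether 1 embryo decides a difference is unknown. Relative to the median of the neural progenitor list, the median log2 difference of the 9 genes was 0.38, against 0.25 as reported. Under this scaling, chosen after the data were seen, Emx1 (0.67) replaced Otx2 (-0.48) as the gene past 1.5-fold, Otx1 was at 0.25 and Gsx2, at -0.20, had the smallest difference. Lowering the threshold from 2-fold to 1.5-fold raised the count of genes past it from 0 to 1 (Otx2). With a pseudocount of 1 RPKM the median of the cortical hem and dorsal midline list was -0.23, that of the diencephalon and optic vesicle list -0.39 and that of the red blood cell list 0.70, since a pseudocount shrinks the differences of low genes. The pallial neurogenesis median went from -0.51 to -0.31, which is within the counting interval of its genes. The list alternatives were this pseudocount and no filter on reads, and 21 of the 24 medians (this one included) stayed within that interval. That 0 of the 24 changed sign says little. The pseudocount keeps the sign of each gene, and dropping the filter leaves a list without genes of few reads unchanged. Centring was not run on the lists. The telencephalon-wide median (0.003) lay below the median of all genes (0.006), so its sign depends on centring. Among the 9 genes, Gsx2 had the fewest reads.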
